A study of Mus musculus with 19 samples.

Results

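The respiratory chain subunits are the nuclear genes whose proteins build complexes I to IV of the mitochondrial inner membrane. They were taken by symbol from the array annotation: Nduf followed by a, b, c, s or v and a number for complex I, Sdha to Sdhd for complex II, Uqcr symbols for complex III, and Cox4 to Cox8 with a subunit suffix for complex IV. Assembly factors (Ndufaf) were left out, and Ndufa4, whose protein is now placed in complex IV, was counted with complex I by its symbol. Ndufa4l2 was also counted with complex I by its symbol alone, and whether its protein belongs there was not examined. A gene was read from the probe set that carried its symbol alone and had the highest mean over all arrays. This gave 64 of the 19938 genes measured, with 35 in complex I, 4 in complex II, 8 in complex III and 17 in complex IV. No measured expression value chose between genes, and no filter on dim genes removed any. Cox7c, Ndufb4, Ndufb4b and Ndufs5-ps were named only on probe sets shared with another symbol and were not analysed here.

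Hippocampal RNA of C57BL/6J mice aged 6 months was hybridised to 19 Affymetrix arrays, 1 per sample. The groups were APP-PS1 mice on ibuprofen chow (n = 5), APP-PS1 mice on control chow (n = 5), wild-type littermates on ibuprofen chow (n = 5) and wild-type littermates on control chow (n = 4). APP-PS1 mice carry the APPSwe-PS1deltaE9 transgenes, driven in this line by the prion protein promoter, and form amyloid plaques. Ibuprofen, an inhibitor of the cyclooxygenases, was given at 375 ppm in the chow from 3 to 6 months of age, and control mice ate that chow without it.

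The respiratory chain passes electrons taken from NADH (complex I) and succinate (complex II) through ubiquinone, complex III and cytochrome c to oxygen at complex IV, and pumps protons that drive ATP synthase. Neurons depend on it for the ATP that restores ion gradients after synaptic activity, and loss of complex IV activity has been described in brain tissue in Alzheimer disease. Complexes I, III and IV also hold subunits encoded by mitochondrial DNA, of which 0 of 13 were named on the probe sets used here, whereas all 4 subunits of complex II are nuclear.

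The promoters of these genes were examined for letters bound by factors known to control respiratory genes. Windows of 300 bases, 250 before and 50 after the start site, were taken from a RefSeq table of build GRCm38.p6, in which 51 of the 64 genes had an entry and 2 of those had more than 1 window. Both strands were searched for GCANGCGC (nuclear respiratory factor 1, NRF1), CCGGAAG (ETS family, which includes GABP), AANATGGC (YY1) and GGGCGG (Sp family). Matches of a pair of these motifs overlapped in 1 gene. The promoters printed here belong to the members with the smallest p for ibuprofen in APP-PS1 mice within their complex (Ndufb3, Sdha and Cox7a2), and to Cox8b, whose values varied most between arrays of a group. Uqcrc2 held that place in complex III and is named only. Capitals mark motif matches, and each sequence reads 5′ to 3′ along its gene. Ndufb3 lies on the plus strand at chr1:58586147-58586446, Sdha on the minus strand at chr13:74350191-74350490, Cox7a2 on the minus strand at chr9:79759804-79760103 and Cox8b on the minus strand at chr7:140900397-140900696.
Ndufb3: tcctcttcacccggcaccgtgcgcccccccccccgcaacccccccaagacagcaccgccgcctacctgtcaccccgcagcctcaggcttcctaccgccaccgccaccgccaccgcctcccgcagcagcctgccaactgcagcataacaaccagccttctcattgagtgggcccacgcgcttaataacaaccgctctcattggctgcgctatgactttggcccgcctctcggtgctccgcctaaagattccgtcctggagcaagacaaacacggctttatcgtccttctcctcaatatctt
Sdha: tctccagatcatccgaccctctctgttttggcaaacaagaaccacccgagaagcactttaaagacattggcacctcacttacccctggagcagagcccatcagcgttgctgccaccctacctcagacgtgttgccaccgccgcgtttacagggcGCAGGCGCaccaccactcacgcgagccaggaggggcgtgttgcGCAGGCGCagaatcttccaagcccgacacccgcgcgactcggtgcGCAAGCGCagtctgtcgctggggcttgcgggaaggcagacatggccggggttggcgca
Cox7a2: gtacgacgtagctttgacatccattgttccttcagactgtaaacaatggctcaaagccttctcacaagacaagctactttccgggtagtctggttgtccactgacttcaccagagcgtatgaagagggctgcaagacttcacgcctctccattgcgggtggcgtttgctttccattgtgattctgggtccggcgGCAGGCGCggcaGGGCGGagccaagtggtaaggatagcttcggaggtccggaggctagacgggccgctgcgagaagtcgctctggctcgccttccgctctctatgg
Cox8b: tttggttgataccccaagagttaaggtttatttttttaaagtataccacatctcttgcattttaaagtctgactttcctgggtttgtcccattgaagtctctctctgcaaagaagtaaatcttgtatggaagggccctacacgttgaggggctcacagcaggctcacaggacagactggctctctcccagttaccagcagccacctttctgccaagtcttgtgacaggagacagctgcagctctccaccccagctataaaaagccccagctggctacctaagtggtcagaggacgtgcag

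The Sdha window held 3 matches to the NRF1 letters, and the Cox7a2 window held 1 match to the NRF1 letters and 1 to the Sp letters. Ndufb3 and Cox8b held 0 matches to these 4 motifs, which says only that these letters are not in these windows. Among the 51 members, 33.3% had an NRF1 match, against 14.2% of the 17491 protein-coding genes in the table. For the YY1 letters the shares were 25.5% of members and 7.46% of protein-coding genes, for the ETS letters 21.6% and 12.9%, and for the Sp letters 41.2% and 49.2%. Over all 27025 genes of the table, coding or not, the shares were 10.8% (NRF1), 6.96% (YY1), 9.93% (ETS) and 38.2% (Sp). The motifs were spread unevenly over the complexes. YY1 letters were found in 12 of 31 complex I genes but in 0 of 3 complex II genes, 0 of 5 complex III genes and 1 of 12 complex IV genes, while NRF1 letters were found in 9 of 31, 3 of 3, 3 of 5 and 2 of 12. A match is a description of letters and not evidence of binding. By position the 64 genes were scattered over 18 chromosomes, with 8 on chromosome 7 and 3 on chromosome X.

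App and Prnp, the prion protein gene, followed the genotype labels, with all APP-PS1 arrays above all wild-type arrays. In limma's fit (19938 genes, Benjamini-Hochberg adjustment) APP-PS1 minus wild type gave 0.67 ± 0.03 (SE) for Prnp, adjusted p = 8.19e-11, and 0.40 ± 0.04 (SE) for App, adjusted p = 3.3e-06, on control chow. Neuron markers averaged 12.59 to 12.76 on the log2 scale in every array. In 3 arrays the median correlation with the others over all probe sets lay under 0.99: wild-type ibuprofen replicate 5 (0.9739), wild-type ibuprofen replicate 1 (0.9873) and APP-PS1 control replicate 1 (0.9895). Markers of the choroid plexus, a secretory tissue of the ventricles next to the hippocampus, split the arrays into 7 with a marker mean of 9.68 to 11.02 and 12 with 8.08 to 8.81, and every group held both kinds. In whole tissue, fewer cells of a type and less RNA per cell cannot be told apart. Nothing in the labels ties a replicate to a separate animal, so p-values measure the spread between these samples, and their number limits the precision.

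No subunit gene differed between groups past the threshold in any of the 5 comparisons made. The mean log2 signal over the 64 genes was 10.98 ± 0.03 (SD, n = 5) in APP-PS1 mice on ibuprofen chow, 11.00 ± 0.04 (SD, n = 5) in their control-chow counterparts, 11.04 ± 0.12 (SD, n = 5) in wild-type mice on ibuprofen chow and 11.00 ± 0.04 (SD, n = 4) in wild-type mice on control chow. The 4 groups overlapped, and the widest spread was in wild-type mice on ibuprofen chow. In that group the mean was 11.19 in replicate 1 and 11.14 in replicate 5 but 10.93 to 10.98 in the other 3 arrays. Within groups the members varied somewhat less than other genes, with a median SD of 0.10 against 0.12 over all genes. The least variable were Cox8a, the widely expressed form of subunit VIII, Cox6c and Uqcrc2, each with a within-group SD of 0.04. The most variable was Cox8b with 0.60.

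**Figure D1:**
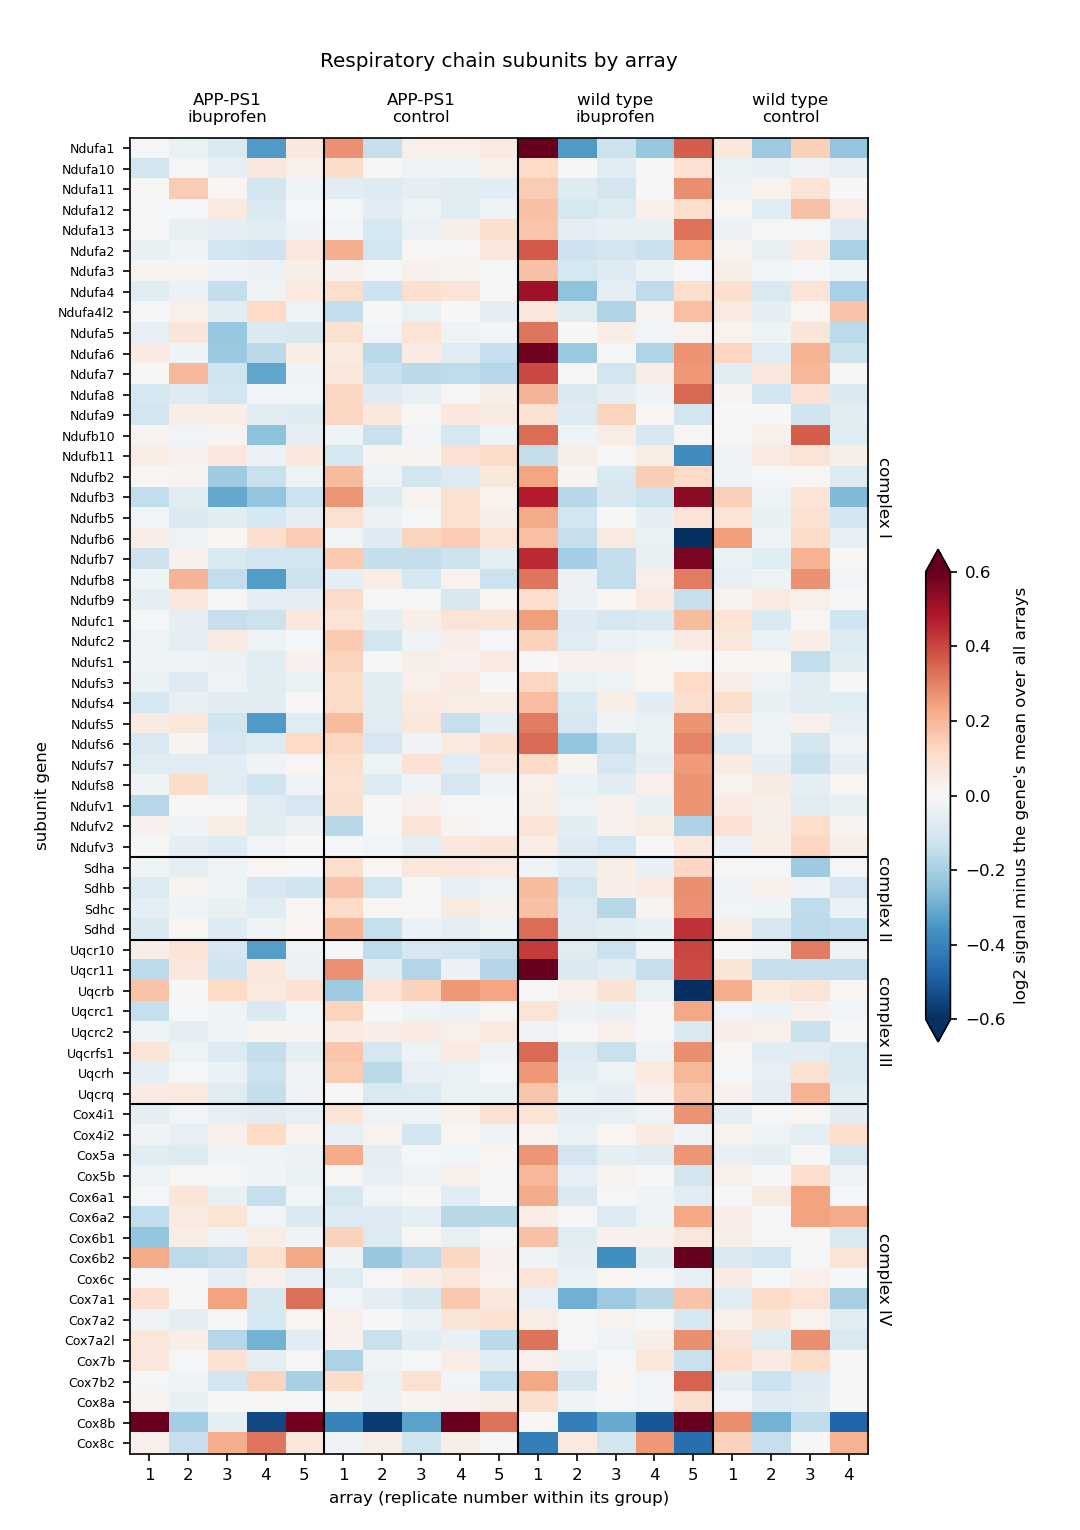
Deviation of each of the 64 subunit genes (vertical axis, grouped by complex) from its own mean over the 19 arrays (horizontal axis, grouped by genotype and chow), in log2 units, with red above and blue below the mean and colours saturating at 0.6. Wild-type ibuprofen replicates 1 and 5 are red for most genes, and the Cox8b row changes from array to array within every group.

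Wild-type ibuprofen replicates 1 and 5, both among the 3 arrays that correlated least with the rest, moved most of the counts given for the comparisons that use them. Both lay above the other 3 arrays of their group for 45 of the 64 members (70.3%) and below them for 4 (6.25%), namely Ndufb11, Ndufs1, Uqcrc2 and Cox8c. Over all genes the same held for 43.2% above and 13% below. Ndufb3, an accessory subunit of complex I, shows the pattern: 9.76 and 9.83 in these replicates, and 9.12, 9.19 and 9.16 in replicates 2, 3 and 4. Counts of members above 0 also depended on the scaling of the arrays, whose medians ran from 8.06 to 8.14, and are given below with the arrays quantile-normalized again. In the plot of deviations both arrays stand out against their own group. Whether these arrays differ in RNA quality or dissection was not tested.

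The first comparison asked whether the transgenes alter these genes on control chow. Of the 64 members, 0 passed limma's adjusted threshold of 0.05, where 0.0100% of all genes passed. At an unadjusted p under 0.05 there were 2 members higher, against 4.80% of all genes, and 2 lower, against 1.07%. The median difference, APP-PS1 minus wild type, was 0.02 for the members and 0.02 for all genes, with 37 of 64 members above 0 (23 of 64 after quantile normalization). All 5 APP-PS1 arrays lay above all 4 wild-type arrays for 2 members (2.94% of all genes) and below them for 2 (0.903%). When wild-type ibuprofen replicates 1 and 5 were left out, which lowers the pooled spread without touching these groups, 4 members were higher and 5 lower at an unadjusted p under 0.05, against 1784 and 423 of the 19938 genes.

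Cox6a2, the heart and muscle form of subunit VIa, had the smallest p of the members on control chow. It stood at 9.11, 9.11, 9.13, 9.02 and 9.02 in APP-PS1 arrays, against 9.23, 9.19, 9.43 and 9.41 in wild-type arrays. The groups did not overlap, and the wild-type values fell into a higher and a lower pair. The difference was -0.24 ± 0.07 (SE), or 0.849-fold, with adjusted p = 0.767 in limma, and the adjusted p ran from 0.199 to 1 over the alternatives. On ibuprofen chow the groups overlapped and the difference was -0.06 ± 0.07 (SE). Its partner Cox6a1, the form found in most tissues, gave -0.11 ± 0.06 (SE) on control chow, adjusted p = 0.856.

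Sdha, the flavoprotein of complex II that oxidizes succinate, stood at 12.56, 12.46, 12.52, 12.52 and 12.51 in APP-PS1 mice on control chow, against 12.46, 12.44, 12.24 and 12.44 in wild-type mice on control chow. Replicate 3 of the wild type was the lowest, and the lowest APP-PS1 array lay level with the highest wild-type one. The difference was 0.12 ± 0.04 (SE), adjusted p = 0.797, and 0.07 without that wild-type array. Ndufs1, the largest iron-sulfur subunit of complex I, differed by 0.10 ± 0.04 (SE), adjusted p = 0.829, and by 0.06 without the same array. Ndufa9, a peripheral-arm subunit of that complex, differed by 0.11 ± 0.05 (SE), adjusted p = 0.85. Cox7b, of complex IV, gave -0.11 ± 0.05 (SE), adjusted p = 0.806. None of these passed the test. The members with groups that did not overlap were Ndufa10, an accessory subunit of complex I (0.06 ± 0.04, SE) and Sdhc, a membrane anchor of complex II (0.10 ± 0.07, SE), on the higher side, and Ndufa11, an accessory subunit of the membrane arm (-0.09 ± 0.06, SE), and Cox6a2 on the lower. Of the markers of other cells 0 passed the adjusted threshold in this comparison, but several lay to 1 side of 0. Choroid plexus markers lay above 0 in 9 of 9 (median 0.61) and endothelial markers in 5 of 5 (median 0.12). Microglial markers did so in 6 of 7 (median 0.07) and neuron markers in 5 of 10 (median 0.00). The 1 red blood cell marker measured lay below 0 (-0.05), and 57.9% of all genes lay above 0. The mean of 8 oligodendrocyte markers was 11.42 to 11.50 in APP-PS1 arrays, against 11.28 to 11.43 in wild-type arrays, with a median difference of 0.18 and 5 of 8 higher at an unadjusted p under 0.05. The 7 astrocyte markers had a median difference of 0.09, with array means of 11.45 to 11.70 in APP-PS1 mice and 11.28 to 11.50 in wild-type mice. With the oligodendrocyte mean as a covariate 0 members were called, the members' median was 0.00, and the differences were -0.23 for Cox6a2 and 0.14 for Sdha. The part of the astrocyte, endothelial and microglial markers was not tested.

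**Figure D2:**
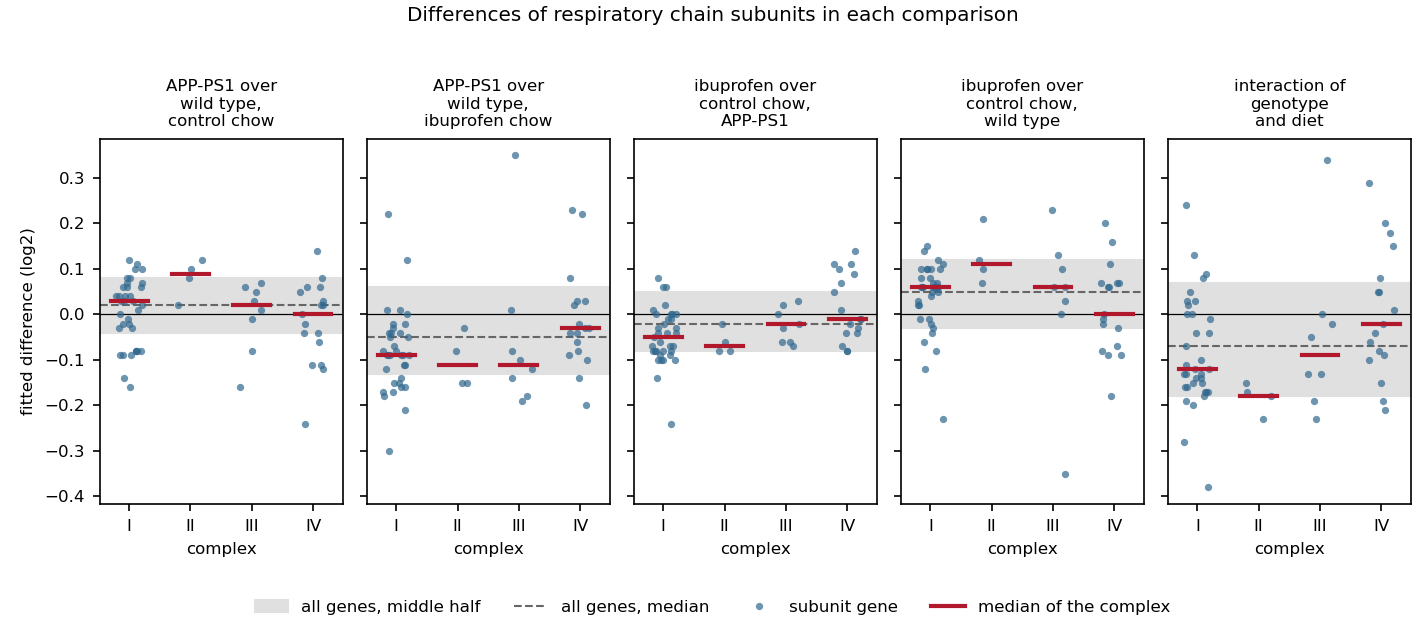
Fitted log2 differences (vertical axis) of the 64 subunit genes by complex (horizontal axis) in the 4 comparisons of 2 groups and the interaction; points are genes, red bars the median of a complex, the grey band the interquartile range of all genes and the dashed line their median. The complex II median lies farthest from that of all genes on control chow (0.09 against 0.02) and in the interaction (-0.18 against -0.07), and Uqcrb is the highest point for APP-PS1 over wild type on ibuprofen chow (0.35) and the lowest for ibuprofen in wild type (-0.35).

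On ibuprofen chow, APP-PS1 minus wild type, 0 of 64 members passed the adjusted threshold, where 0.271% of all genes passed. At an unadjusted p under 0.05 there was 1 member higher (6.25% of all genes) and 10 lower (18.2%). The median was -0.08 for the members and -0.05 for all genes, and 13 of 64 members lay above 0 (22 of 64 after quantile normalization). For 0 members did all APP-PS1 arrays lie above all wild-type arrays (0.231% of all genes) or below them (2.06%). Without wild-type ibuprofen replicates 1 and 5 the median was 0.00, with 36 of 64 above 0, against 50.1% of all genes, and 2 members were higher and 0 lower at an unadjusted p under 0.05, against 726 and 913 of the 19938 genes.

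Ndufb3 had the smallest p in this comparison, at 9.14, 9.22, 8.98, 9.05 and 9.16 in APP-PS1 mice, against 9.76, 9.12, 9.19, 9.16 and 9.83 in wild-type mice. The difference was -0.30 ± 0.12 (SE), adjusted p = 0.161, and -0.05 ± 0.09 (SE) without wild-type replicates 1 and 5, adjusted p = 0.909. Sdhb, the iron-sulfur subunit of complex II, gave -0.15 ± 0.06 (SE), adjusted p = 0.169, and -0.05 ± 0.06 (SE) without those arrays. Uqcrh, the hinge subunit of complex III, gave -0.14 ± 0.06 (SE), adjusted p = 0.181, and -0.04 ± 0.06 (SE) without them. For Cox7a2l, a factor that joins complexes III and IV into supercomplexes, the difference was -0.20 ± 0.09 (SE), adjusted p = 0.175, and -0.08 ± 0.08 (SE) without them. All 4 differences lay nearer 0 without the wild-type pair of arrays.

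Cox7a1, the heart and muscle form of subunit VIIa, was the exception among the members with the smallest p. It stood at 8.96, 8.86, 9.10, 8.76 and 9.19 in APP-PS1 mice on ibuprofen chow, against 8.81, 8.57, 8.64, 8.69 and 9.03 in wild-type mice on ibuprofen chow. The groups overlapped, with wild-type replicate 5 among the high values. The difference was 0.22 ± 0.09 (SE), adjusted p = 0.17, and 0.34 ± 0.09 (SE) without wild-type replicates 1 and 5, adjusted p = 0.219. With limma's array weights it was 0.43, adjusted p = 0.00271, which was the single call of a member in the comparisons of groups under any alternative tried. The share of all genes called with these weights is not given here, so the call has no background beside it. Choroid plexus markers were set beside Cox7a1, whose slope on them, given below, did not pass the test with all arrays. Their mean was 10.72, 8.53, 9.68, 8.54 and 10.77 in the APP-PS1 arrays. In the wild-type arrays it was 8.70, 8.32, 8.08, 8.27 and 10.85. In wild-type mice on control chow the marker mean was 10.04, 8.81, 8.13 and 8.25. Cox7a1 stood there at 8.79, 8.97, 8.94 and 8.66, so the array with the highest markers was not the highest. With the marker mean as a covariate the Cox7a1 difference was 0.15 ± 0.08 (SE), adjusted p = 0.206. Cox7a2, the form of VIIa found in most tissues, gave -0.03 ± 0.04 (SE) on the same chow.

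**Figure D3:**
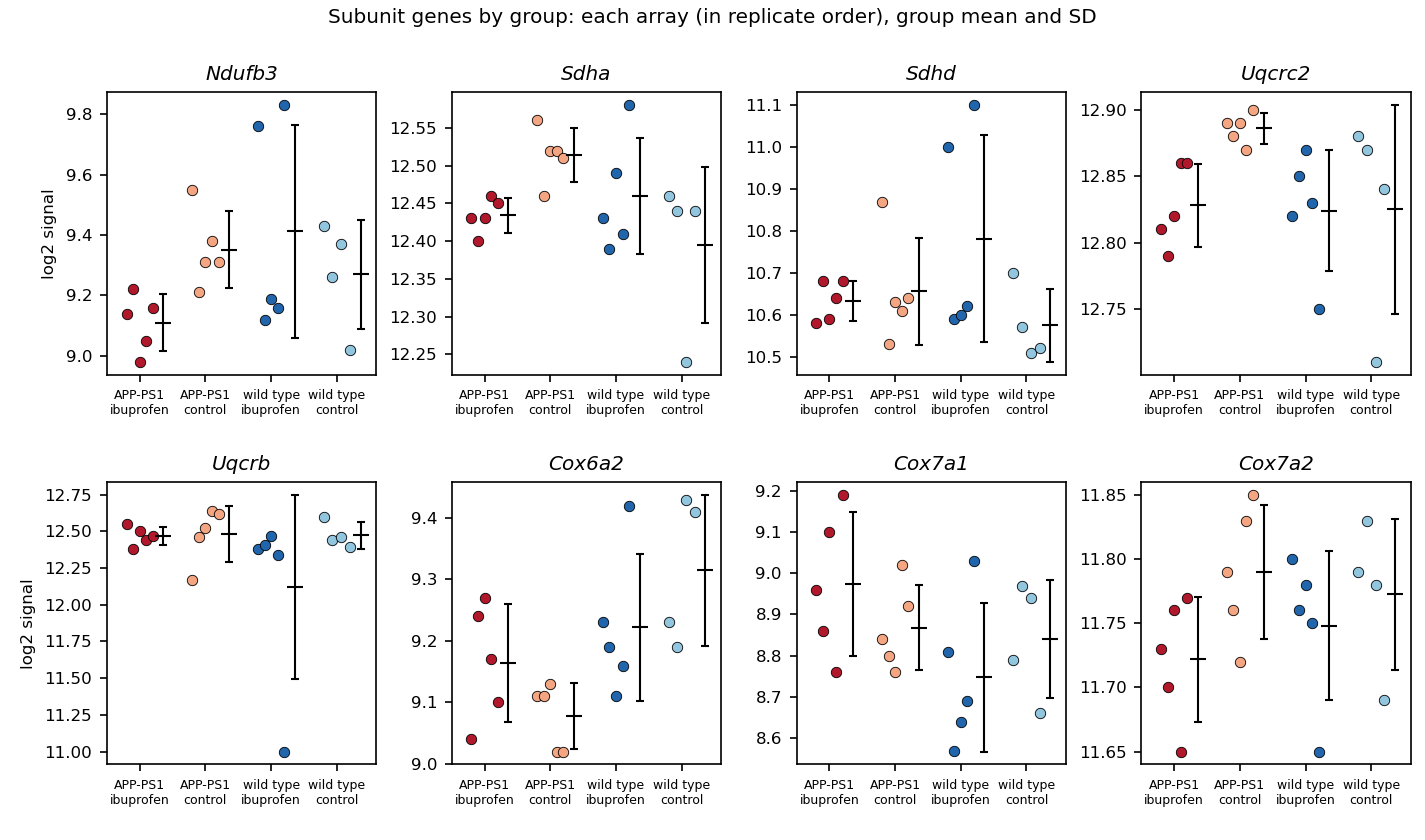
Log2 signal (vertical axis, a scale of its own in each panel) of 8 subunit genes in the 4 groups (horizontal axis); points are arrays in replicate order, and the bar beside them is the group mean with its SD. The high wild-type ibuprofen points of Ndufb3 (9.76 and 9.83) and Sdhd (11.00 and 11.10) are replicates 1 and 5, and the low Uqcrb point (11.00) is replicate 5.

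The next comparison asked how the drug acts in the transgenic animals. Ibuprofen minus control chow in APP-PS1 mice, 0 of 64 members passed the adjusted threshold, as did 0% of all genes. At an unadjusted p under 0.05, 0 members were higher (1.82% of all genes) and 0 lower (4.66%). The median was -0.03 for the members and -0.02 for all genes, with 19 of 64 above 0 (32 of 64 after quantile normalization). All ibuprofen arrays lay above all control arrays for 0 members (0.507% of all genes) and below them for 1 (2.27%). The 95% interval of the difference lay within 0.32 log2 units of 0 for 58 of the 64 members and within 0.58 log2 units, or 1.5-fold, for 63. Without wild-type ibuprofen replicates 1 and 5, which enter this comparison through the pooled spread alone, 0 members were higher and 9 lower at an unadjusted p under 0.05, against 724 and 2035 of the 19938 genes, and 0 members passed the adjusted threshold.

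Ndufb3 again had the smallest p, at 9.14, 9.22, 8.98, 9.05 and 9.16 in APP-PS1 mice on ibuprofen chow, against 9.55, 9.21, 9.31, 9.38 and 9.31 in APP-PS1 mice on control chow. All ibuprofen arrays but replicate 2 lay below every control array. The difference was -0.24 ± 0.12 (SE), or 0.845-fold, with adjusted p = 0.716 in limma (0.223 to 1 over the alternatives). Uqcrc2, a core protein of complex III, was the member with groups that did not overlap. It stood at 12.81, 12.79, 12.82, 12.86 and 12.86 on ibuprofen chow, against 12.89, 12.88, 12.89, 12.87 and 12.90 on control chow. Its difference was small, -0.06 ± 0.03 (SE), adjusted p = 0.716. Its partner core protein Uqcrc1 gave -0.07 ± 0.05 (SE).

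Sdha stood at 12.43, 12.40, 12.43, 12.46 and 12.45 in APP-PS1 mice on ibuprofen chow, against the control values given above. The difference was -0.08 ± 0.04 (SE), adjusted p = 0.716, and the groups met at 12.46. Ndufa9 gave -0.10 ± 0.05 (SE), and Ndufs3 and Ndufs4, subunits of the arm of complex I that reaches into the matrix, gave -0.08 ± 0.04 (SE) and -0.09 ± 0.05 (SE), each with adjusted p = 0.716. The flavoprotein Ndufv1, which takes electrons from NADH, gave -0.09 ± 0.05 (SE), and Cox5a, of complex IV, -0.08 ± 0.07 (SE). On the other side of 0 lay Ndufa11 (0.08 ± 0.06, SE), Cox8b (0.14 ± 0.32, SE) and Uqcr10, of complex III (0.03 ± 0.10, SE). None of these members passed the test. Without APP-PS1 control replicate 1, Cox5a gave -0.03 and Uqcrc1 -0.04, and without APP-PS1 ibuprofen replicate 2, Ndufa11 gave 0.04.

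In wild-type mice, ibuprofen minus control chow, 0 of 64 members passed the adjusted threshold, as did 0% of all genes. At an unadjusted p under 0.05 there were 2 members higher (9.08% of all genes) and 0 lower (1.95%). The median was 0.06 for the members and 0.05 for all genes, with 44 of 64 above 0 (31 of 64 after quantile normalization). For 0 members did the arrays of the diets separate above (1.94% of all genes) or below (0.301%). Without replicates 1 and 5 of the ibuprofen group the median was -0.03, with 14 of 64 above 0, against 51.3% of all genes. At an unadjusted p under 0.05, 0 members were then higher and 4 lower, against 286 and 185 of the 19938 genes. The sign of the members' median turned with these arrays. Oligodendrocyte markers lay above 0 in 8 of 8 (median 0.14) and astrocyte markers in 7 of 7 (median 0.13) in this comparison with all arrays, with 0 of either called. With the oligodendrocyte mean as a covariate the members' median was 0.02.

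Sdhd, a membrane anchor of complex II, had the smallest p in this comparison. It stood at 11.00, 10.59, 10.60, 10.62 and 11.10 in wild-type mice on ibuprofen chow, against 10.70, 10.57, 10.51 and 10.52 in wild-type mice on control chow. Replicates 1 and 5 were high and the other 3 ibuprofen arrays lay among the controls. The difference was 0.21 ± 0.09 (SE), adjusted p = 0.432, and 0.03 ± 0.06 (SE) without those arrays. The same held for Cox8a, at 0.07 ± 0.03 (SE) with all arrays and 0.02 ± 0.03 (SE) without them, for Cox7b2, whose human counterpart is mainly expressed in testis, at 0.16 ± 0.09 (SE) and 0.03 ± 0.08 (SE), and for Uqcr11, of complex III, at 0.23 ± 0.12 (SE) and -0.01 ± 0.08 (SE). All had adjusted p = 0.432 with all arrays.

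The interaction, the ibuprofen difference in APP-PS1 mice minus that in the wild type, was called for 0 of 64 members and 0% of all genes. At an unadjusted p under 0.05 there was 1 member higher (4.50% of all genes) and 6 lower (16.0%), with a median of -0.10 for the members and -0.07 for all genes. Of the members, 17 of 64 lay above 0, and 30 of 64 did so after quantile normalization. Without wild-type ibuprofen replicates 1 and 5 the median was 0.01 and 33 of 64 lay above 0, with 3 members higher and 2 lower at an unadjusted p under 0.05, against 425 and 1702 of the 19938 genes. Sdha gave -0.15 ± 0.06 (SE), adjusted p = 0.214, and -0.12 ± 0.06 (SE) without these arrays. Ndufs1 gave -0.13 ± 0.06 (SE), adjusted p = 0.233, and -0.14 ± 0.06 (SE) without them. Ndufs7, an iron-sulfur subunit of complex I, gave -0.17 ± 0.08 (SE) and -0.08 ± 0.06 (SE), Ndufs3 -0.13 ± 0.06 (SE) and -0.08 ± 0.05 (SE), and Cox7b 0.15 ± 0.06 (SE) and 0.13 ± 0.06 (SE). None of these 5 passed the test with or without those arrays. Sdha was -0.06 with array weights and -0.05 after median centring, Ndufs1 was 0.00 after quantile normalization, and Cox7b was 0.09 without the 3 arrays that stand apart and 0.25 after median centring.

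By complex, the genes of complex II had the same sign as each other in every comparison with all arrays at the deposited scaling. APP-PS1 minus wild type, all 4 lay above 0 on control chow (median 0.09), as did 57.9% of all genes. All 4 lay below 0 on ibuprofen chow (median -0.11), as did 62.2% of all genes. Ibuprofen minus control chow, all 4 lay below 0 in APP-PS1 mice (median -0.07), as did 58.2% of all genes. In wild-type mice all 4 lay above 0 (median 0.11), as did 66.8% of all genes. The sign of Sdhd in APP-PS1 mice was not stable, with differences from -0.05 to 0.04 over the alternatives, above 0 after either rescaling. The comparisons share groups, so the signs of the complex II genes are not separate observations. Without wild-type ibuprofen replicates 1 and 5 the medians on ibuprofen chow and in wild-type mice were 0.02 and 0.02, with 3 of 4 genes above 0 in each. Complex I had medians of 0.03, -0.09, -0.05 and 0.06 in the same order of comparisons, complex III of 0.02, -0.11, -0.02 and 0.06, and complex IV of 0.00, -0.03, -0.01 and 0.00. Without those arrays the medians on ibuprofen chow and in wild-type mice were 0.00 and -0.06 for complex I, 0.00 and -0.02 for complex III, and 0.01 and -0.03 for complex IV. Whether complexes differ from each other was not tested.

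Among core and accessory subunits, Ndufs1 and Ndufv1 varied little within groups and Ndufb8 varied more. Ndufs1 averaged 10.75 ± 0.03, 10.83 ± 0.05, 10.79 ± 0.01 and 10.73 ± 0.07 (SD, with n = 5, 5, 5 and 4) in APP-PS1 ibuprofen, APP-PS1 control, wild-type ibuprofen and wild-type control arrays. Ndufv1 averaged 11.40 ± 0.07, 11.50 ± 0.04, 11.52 ± 0.13 and 11.47 ± 0.06 in the same order. Uqcrfs1, the Rieske iron-sulfur protein of complex III, averaged 9.34 ± 0.08, 9.39 ± 0.10, 9.46 ± 0.22 and 9.33 ± 0.04. Ndufb8, an accessory subunit of complex I often used as its marker on blots, averaged 10.86 ± 0.20, 10.90 ± 0.08, 11.04 ± 0.21 and 10.99 ± 0.15. The within-group SD was 0.05 for Ndufs1, 0.08 for Ndufv1, 0.13 for Uqcrfs1 and 0.17 for Ndufb8, against a median of 0.12 over all genes. None of these 4 genes passed the test in any comparison.

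Of the isoform pairs of complex IV, Cox4i1, the form found in most tissues, averaged 12.12 ± 0.02, 12.20 ± 0.06, 12.21 ± 0.14 and 12.14 ± 0.04 in that order of groups, and Cox4i2, a form linked to low oxygen and to lung, 8.45 ± 0.07, 8.40 ± 0.05, 8.43 ± 0.03 and 8.44 ± 0.07. Cox4i1 gave -0.08 ± 0.05 (SE) and Cox4i2 0.05 for ibuprofen in APP-PS1 mice, and neither passed the test. Cox5b averaged 12.81 ± 0.02, 12.82 ± 0.03, 12.84 ± 0.12 and 12.86 ± 0.06, and Cox8a 13.24 ± 0.02, 13.26 ± 0.03, 13.28 ± 0.06 and 13.21 ± 0.04. Signals of different probe sets are not comparable as levels, so no ratio of isoforms is given.

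Cox8b, the form of subunit VIII best known from heart, skeletal muscle and brown fat, was the member whose signal varied most within groups. It stood at 9.09, 8.09, 8.24, 7.75 and 8.87 in APP-PS1 mice on ibuprofen chow and at 7.89, 7.72, 7.97, 9.13 and 8.62 in APP-PS1 mice on control chow. In wild-type mice it stood at 8.30, 7.88, 7.99, 7.78 and 9.70 on ibuprofen chow and at 8.57, 8.01, 8.14 and 7.81 on control chow. High and low arrays occurred in all 4 groups, and no comparison of groups called the gene. The highest arrays were among those with high choroid plexus markers. Cox8b ran from 8.24 to 9.70 in the 7 arrays with a marker mean of 9.68 or more and from 7.72 to 8.30 in the other 12. The ranges overlapped, with 8.30 in wild-type ibuprofen replicate 1 (marker mean 8.70) and 8.24 in APP-PS1 ibuprofen replicate 3 (9.68).

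Fitted in limma with a mean per group and the mean of the 9 measured choroid plexus markers as a covariate, Cox8b changed by 0.50 ± 0.04 (SE) log2 units per log2 unit of the marker mean, adjusted p = 3.67e-08, which was rank 43 of 19938 genes by p. This fit was added after the data were seen. Of the 64 members, 1 passed as higher with the markers, against 2.01% of all genes, and 0 as lower, against 0.00502%. The next members were Cox6b2, known mainly from testis, at 0.14 ± 0.04 (SE), adjusted p = 0.0521, and Cox7a1 at 0.10 ± 0.03 (SE), adjusted p = 0.0855. Without wild-type ibuprofen replicate 5 both slopes were 0.08 ± 0.03 (SE), with limma's adjusted p = 0.697 for Cox6b2 and 0.521 for Cox7a1. The Cox8b slope was 0.43 ± 0.04 (SE), adjusted p = 7.38e-06, without the 3 arrays that stand apart, and 0.44 to 0.52 with each array left out in turn. It was 0.36 ± 0.05 (SE), adjusted p = 7.4e-05, with Ttr, the transthyretin gene of the choroid plexus, alone as the covariate. Cox8a, the other subunit VIII gene, ran from 13.23 to 13.34 in the 7 arrays with high markers and from 13.17 to 13.34 in the other 12. Which cells hold the Cox8b transcript was not tested.

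**Figure D4:**
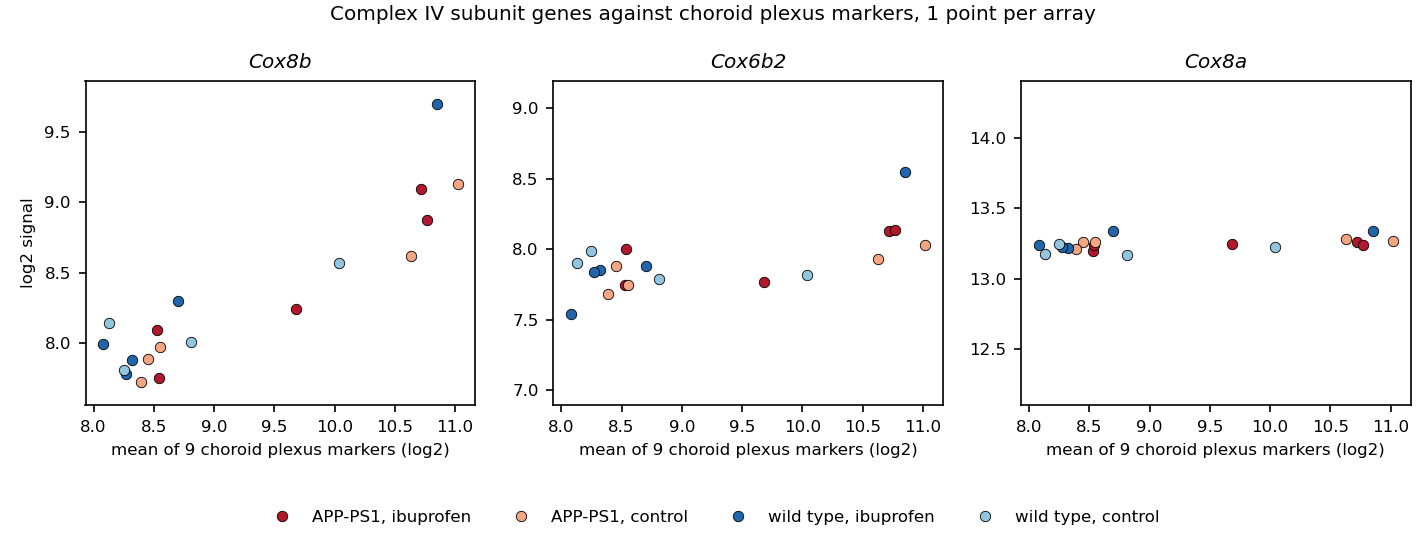
Log2 signal (vertical axis, spanning the same number of log2 units in each panel) of Cox8b, Cox6b2 and Cox8a against the mean log2 signal of 9 choroid plexus markers (horizontal axis), 1 point per array, coloured by group. Cox8b runs from 8.24 to 9.70 in the 7 arrays with a marker mean of 9.68 or more and from 7.72 to 8.30 in the other 12, and Cox8a is level.

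Uqcrb, a small subunit of complex III, was low in 1 array. It stood at 11.00 in wild-type ibuprofen replicate 5 and at 12.17 to 12.64 in the other 18 arrays. Ibuprofen minus control chow in wild-type mice was -0.35 ± 0.19 (SE), adjusted p = 0.433, and -0.07 ± 0.08 (SE) without replicates 1 and 5. Its 3 probe sets gave -0.35, -0.46 and -0.08 in that comparison. The 2 probe sets of Ndufb11, an accessory subunit of complex I, went opposite ways there, at -0.12 and 0.20, and on ibuprofen chow at 0.12 and -0.24. Those of Cox7a2l gave -0.12 and 0.07 for genotype on control chow. Those of Ndufa11 gave -0.09 and -0.02 for genotype on control chow, and 0.08 and 0.01 for ibuprofen in APP-PS1 mice. Of the 64 members 10 had more than 1 probe set. Genes of this kind can have near-identical copies elsewhere in the genome, so values that differ between the probe sets of a gene are uncertain.

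In the lists of other mitochondrial and energy genes 0 members were called in the 5 comparisons. ATP synthase subunits (15 of 15 measured) had medians of 0.01, -0.06, -0.03 and 0.04, for genotype on control and ibuprofen chow and for ibuprofen in APP-PS1 and wild-type mice. Assembly factors of complexes I to IV (38 of 43 measured) had medians of 0.08, -0.14, -0.10 and 0.13, with 14 of 38 lower on ibuprofen chow (18.2% of all genes) and 10 of 38 higher with ibuprofen in wild-type mice (9.08% of all genes) at an unadjusted p under 0.05. Enzymes of the tricarboxylic acid cycle with pyruvate dehydrogenase (15 of 16 measured) had 0.10, -0.06, -0.06 and 0.05, and mitochondrial ribosomal proteins (77 genes) 0.03, -0.12, -0.05 and 0.09. On ibuprofen chow 36 of 38 assembly factors and 76 of 77 mitochondrial ribosomal proteins lay below 0, against 51 of 64 subunit genes and 12399 of the 19938 genes, and whether these lists differ was not tested. Without wild-type ibuprofen replicates 1 and 5 both counts of assembly factors at an unadjusted p under 0.05 were 0, and their medians were -0.04 for genotype on ibuprofen chow and 0.02 for ibuprofen in wild-type mice. In the same comparisons without those arrays the medians were 0.01 and -0.05 for ATP synthase, -0.02 and -0.02 for mitochondrial ribosomal proteins, and -0.01 and 0.03 for the tricarboxylic acid cycle. Glycolytic enzymes (13 of 16 measured) had 0.09, 0.00, -0.03 and 0.04.

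Among 13 regulators of respiratory genes, Gabpa, a subunit of the ETS factor GABP, averaged 8.86 ± 0.12 in APP-PS1 ibuprofen, 9.06 ± 0.10 in APP-PS1 control, 9.14 ± 0.21 in wild-type ibuprofen and 8.93 ± 0.16 in wild-type control arrays (SD). Ibuprofen minus control chow gave -0.21 ± 0.09 (SE) in APP-PS1 mice and 0.21 ± 0.10 (SE) in wild-type mice, with an interaction of -0.42 ± 0.14 (SE) and adjusted p = 0.208. Nrf1 gave -0.06 ± 0.08 (SE) in APP-PS1 and 0.16 ± 0.08 (SE) in wild-type mice. Tfam, the packaging and transcription factor of mitochondrial DNA, gave -0.18 ± 0.08 (SE) and 0.05 ± 0.08 (SE), Esrra, an orphan receptor that drives oxidative genes, -0.06 ± 0.09 (SE) and 0.10 ± 0.09 (SE), and the coactivator Ppargc1a -0.01 ± 0.05 (SE) and -0.03 ± 0.05 (SE). None of the 5 passed in any comparison. The mean of the 13 regulators was 9.61 and 9.71 in wild-type ibuprofen replicates 1 and 5. It was 9.47, 9.53 and 9.40 in replicates 2, 3 and 4. For ibuprofen in wild-type mice the list's median was 0.10 with all arrays and 0.05 without replicates 1 and 5. For the interaction it was -0.22 and -0.11. Values of Gabpa and the other regulators one by one without those arrays are not given here.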

How the data were processed

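The 19 hippocampal samples fall into 4 groups by the genotype and treatment in the labels. For each of 35556 probe sets the authors deposited a log2 signal in every array. Partek 6.5 and RMA are named in the submitters' processing notes, without their roles. The RMA settings are not given in the sources used here. Values ran from 3.46 to 14.8. An annotation of 2016 gave 1 symbol to 21789 of them, several to 1621 and none here to 12146, and all 64 members matched RefSeq by gene number.

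Limma 3.58.1 (R 4.3.3) fitted 1 mean per group over all arrays, with an intensity trend in eBayes (15 residual and 6.65 prior degrees of freedom). It gave 5 two-sided comparisons adjusted by Benjamini-Hochberg over 19938 genes at 0.05. Differences carry limma's SE, and group means the SD. The fit was tested on simulated arrays with independent noise for each gene. Those held no array-wide deviation, so that test does not bear on the arrays that stand apart. Members, lists and comparisons were chosen with earlier results of these data known. The genes named were the 5 members with the smallest p in each comparison, the largest and smallest difference for ibuprofen in APP-PS1 mice in each complex, members whose groups did not overlap, and a set of core subunits, isoform pairs and regulators. Cox8b, Uqcrb, Cox6b2, Ndufb11 and the choroid plexus fit were taken up after the values were seen. Alternatives were 2 scalings of the arrays, a filter on dim genes, the mean of probe sets, 2 settings of the prior, array weights, the compared groups alone, a replicate block, 2 marker covariates and arrays left out. Python 3.11.15 with matplotlib 3.10.9 made the figures.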

Additional observations from a re-analysis of the deposited data

Results flagged for a closer look

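For 27 of the members named here, and for the means of the 4 complexes, in each group of arrays, the distance of the highest or lowest array from its nearest neighbour was compared with the range of the group by Dixon's criterion. Of 124 groups examined, 10 held such an array. Chance gives about 1 in 20 for independent genes chosen without sight of their values. Some of these genes were chosen after their values were seen and all share the same arrays, so that rate cannot judge the count. In wild-type ibuprofen replicate 5, Cox8b was high at 9.70 (nearest array 8.30) and Uqcrb low at 11.00 (nearest 12.34). The complex III mean was high at 11.72 in wild-type ibuprofen replicate 1 (nearest 11.51).

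In APP-PS1 control arrays, Cox5a was high at 11.38 (nearest 11.17) and Uqcrc1, a core protein of complex III, high at 12.20 (nearest 12.08), both in replicate 1, the array of that group that stands apart. Cox8a was low at 13.21 in replicate 2 (nearest 13.26). In wild-type control arrays, Ndufs4 at 12.16 (nearest 12.01) and Uqcr11 at 11.66 (nearest 11.45) were high in replicate 1. Uqcr10 was high at 10.84 (nearest 10.53) and Sdha low at 12.24 (nearest 12.44) in replicate 3. No cause was tested for these values.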

How the results depend on the processing

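Of the 35 member differences followed through the alternatives, 1101 of 1114 alternative values kept their direction. Changes to the prior, and arrays left out of groups not compared, cannot move a difference. Much of that count was therefore fixed beforehand, and it does not measure stability. The count of members called stayed at 0 in every comparison of groups and alternative, except 1 (Cox7a1) for genotype on ibuprofen chow with array weights. The share of all genes called with array weights is not given here. The members' medians rested on scaling and on 2 arrays. For genotype on ibuprofen chow the median was 0.01 with array weights and 0.00 without the 3 arrays that stand apart or without the wild-type ibuprofen pair alone. For ibuprofen in wild-type mice these values were -0.04, -0.03 and -0.03. For the interaction they were 0.03, 0.02 and 0.01, with -0.02 after quantile normalization and 0.00 after median centring. Sdhd for ibuprofen in APP-PS1 mice turned to 0.04 (quantile), 0.01 (centring), 0.02 (weights) and 0.03 (3 arrays out), and ran from -0.05 to 0.03 with each array left out. There Uqcr10 ran from 0.00 to 0.10 and Cox8b from -0.03 to 0.36. Uqcr11 in wild-type mice turned to -0.02 (weights), -0.01 (3 arrays out) and -0.01 (pair out), Ndufb11 to 0.04 (mean of probe sets) and 0.00 (weights), and Ndufs1 in the interaction to 0.00 (quantile). On the choroid plexus markers, 2 members passed in limma without the dimmest genes (Cox6b2 added, adjusted p = 0.0457). Without the 3 arrays 2 passed (Uqcrb added, adjusted p = 0.0491), and 1 to 3 passed with each array left out. The Uqcrb slope changed sign, from -0.09 ± 0.06 (SE) with all arrays to 0.06 ± 0.01 (SE) without the 3. It was 0.08 ± 0.02 (SE), adjusted p = 0.104, without wild-type ibuprofen replicate 5, the array where Uqcrb was low. Shares of all genes under these settings are not given here. Cox6b2 joined Cox8b without APP-PS1 ibuprofen replicate 3 or 4, APP-PS1 control replicate 1 or wild-type control replicate 4, Cox7a1 without wild-type control replicate 3, and both without wild-type control replicate 1. Other settings moved both genes away from the threshold. Limma's adjusted p for Cox6b2 was 0.697 without wild-type ibuprofen replicate 5, 0.587 without the 3 arrays and 0.447 with Ttr alone. For Cox7a1 these were 0.521, 0.491 and 0.132. For all these changes the cause was not tested.

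Arrays share replicate numbers, but nothing in the labels says what a number marks. Over 27 pairs of the same number, correlations of deviations ran from -0.27 to 0.60, with 17 over 0.1, against -0.47 to 0.37 for pairs of different number. Of 19 arrays, 11 correlated best with their own number. The count to be met without pairing was not computed, so whether the numbers mark pairs was not tested. The numbers were not used as pairs. With a replicate block the medians were 0.01, -0.08, -0.03, 0.04 and -0.09 (genotype on control and ibuprofen chow, ibuprofen in APP-PS1 and wild-type mice, interaction), with 0 members called. Sex, litter and scan batch were not used here.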
